A study of Mus musculus with 9 samples.

Results

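The changes shared by livers with an induced c-Myc or an induced Mycl transgene were examined by setting 6 induced livers against 3 livers that received no doxycycline. A gene was taken as a shared change when all 6 induced livers lay above, or all 6 below, all 3 controls, and when it also passed an edgeR quasi-likelihood test of the mean of both lines against the controls at an adjusted p under 0.05. Of 12651 genes tested, 1372 met both conditions, 794 of them higher and 578 lower in the induced livers. The separation of the livers is how genes were selected and carries no p-value of its own.

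All mice were C57BL/6J, were aged 4 weeks and carried R26-M2-rtTA, which places the doxycycline-dependent activator at the Rosa26 locus. That locus is active in most tissues, so induction is not limited to hepatocytes. The 3 controls (no dox) and the 3 Mycl livers had Col-TetOP-Mycl-ires-mCherry as their second allele, and the 3 c-Myc livers Col-TetOP-c-Myc-ires-mCherry. The 6 induced livers were taken 48 h after an intraperitoneal injection of 0.2 ml doxycycline at 2.0 mg/ml, and the controls were untreated. No mice given doxycycline without a MYC transgene and no untreated c-Myc mice were analysed here. The effects of the transgenes, of doxycycline and of the injection therefore cannot be told apart in the pooled contrast, and for the c-Myc livers neither can that of the line. The labels do not say whether livers of a group came from separate litters or days, so p-values measure the spread between these samples.

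MYC proteins pair with MAX, bind E-box sequences and are known for raising genes of ribosome production, nucleotide synthesis and cell division. Hepatocytes of the adult liver rarely divide but can re-enter the cell cycle. Doxycycline, the inducer, is also known to slow protein synthesis on mitochondrial ribosomes, which descend from those of bacteria.

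Cdkn1a and Cdk1 mark opposite arms of the cell cycle, and both lay among the 794 higher genes. Cdkn1a encodes p21, an inhibitor of cyclin-dependent kinases and a textbook target of p53, and Cdk1 encodes the kinase that drives entry into mitosis. Their promoters are printed because each holds an element by which its gene is known to be controlled. The windows are the 250 bases before an annotated start, for Cdkn1a the upstream of its 2 starts. They are from RefSeq on GRCm38.p6, written 5′ to 3′ on the strand of the gene. Capitals mark the p53 core (2 copies of CATG with 6 bases between them) in Cdkn1a (chr17:29090729-29090978, plus strand), and the CHR element (TTTGAA) and the CCAAT box, which reads ATTGG on this strand, in Cdk1 (chr10:69352913-69353162, minus strand).
Cdkn1a: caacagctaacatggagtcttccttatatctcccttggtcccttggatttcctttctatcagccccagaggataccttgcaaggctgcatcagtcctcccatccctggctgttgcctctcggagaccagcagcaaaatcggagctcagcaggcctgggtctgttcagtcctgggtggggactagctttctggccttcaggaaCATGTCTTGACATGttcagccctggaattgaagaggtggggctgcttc
Cdk1: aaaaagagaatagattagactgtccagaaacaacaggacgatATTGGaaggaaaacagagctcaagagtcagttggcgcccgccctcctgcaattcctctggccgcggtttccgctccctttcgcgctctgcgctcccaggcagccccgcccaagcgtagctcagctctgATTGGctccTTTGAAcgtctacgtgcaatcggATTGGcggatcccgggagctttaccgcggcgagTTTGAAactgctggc
The p53 core of Cdkn1a began 48 bases before this upstream start. The CHR elements of Cdk1 began 71 and 15 bases before the start, and its CCAAT boxes 208, 80 and 48 bases before it. The second annotated start of Cdkn1a lies downstream (window chr17:29093519-29093768), and its window held none of these letters. The p53 core thus lies more than 250 bases before that start. Which start is used in these livers was not tested.

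Cdkn1a (ENSMUSG00000023067, chromosome 17, 29090976 to 29100727, GRCm38) stood at 4.05, 5.44 and 5.41 CPM in the controls, 30.2, 36.7 and 55.1 CPM in Mycl livers and 31.4, 67.3 and 26.1 CPM in c-Myc livers, where CPM are counts per 1000000 of the scaled library. The lowest induced liver lay well above the highest control, and the values of both lines overlapped. The difference was a pooled log2 change of 3.06 (SE 0.36, adjusted p = 0.00159 in edgeR), and c-Myc minus Mycl was 0.03 (SE 0.34, edgeR adjusted p = 0.959). Cdk1 (ENSMUSG00000019942, chromosome 10, 69335146 to 69352938) stood at 3.56, 3.67 and 2.31 CPM in the controls, 14.5, 10.1 and 12.4 CPM in Mycl livers and 18.4, 35.04 and 19.4 CPM in c-Myc livers. The Mycl livers lay above the controls and the c-Myc livers above the Mycl livers, with c-Myc replicate 2 the highest. Its pooled log2 change of 2.43 (SE 0.28, adjusted p = 0.00138 in edgeR) was accompanied by a c-Myc minus Mycl value of 0.98 (SE 0.27, edgeR adjusted p = 0.0573). Both genes passed in every fit that left out 1 library.

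**Figure D1:**
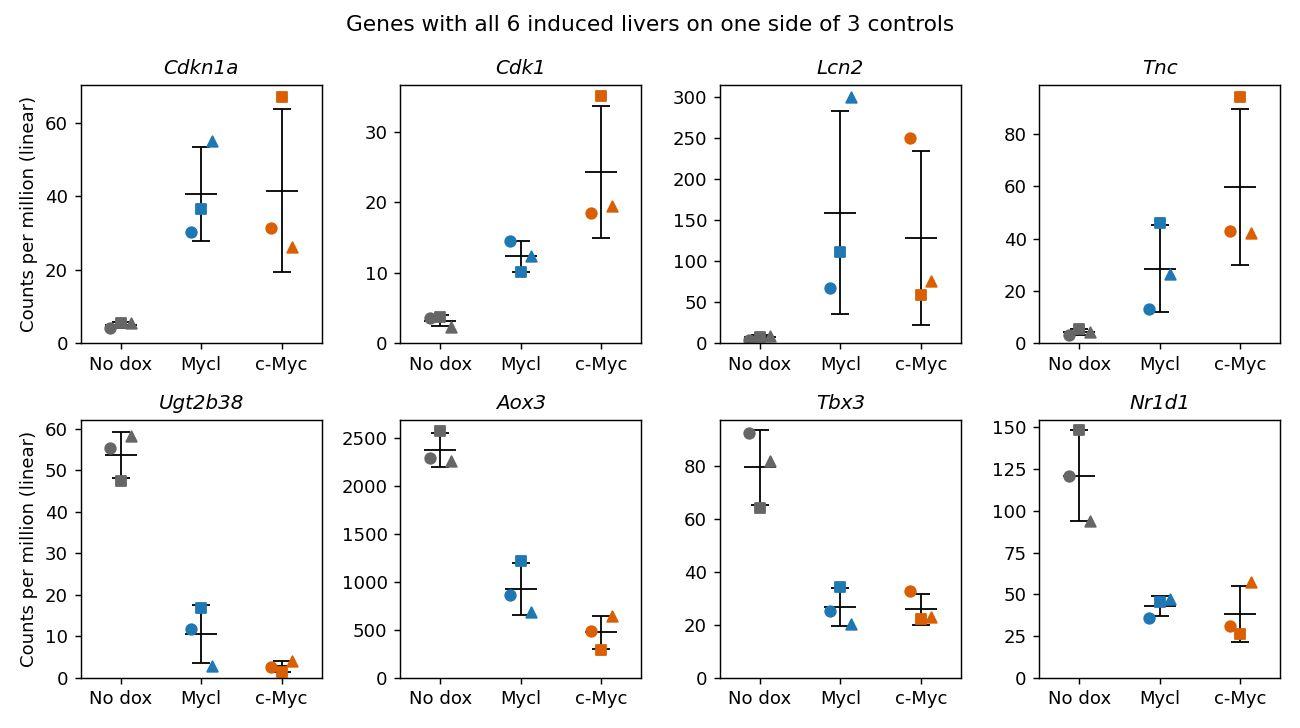
CPM (linear axis from 0) of 8 genes in each liver, by group (no dox, Mycl, c-Myc); circles, squares and triangles are replicates 1, 2 and 3, long lines the mean and bars 1 SD over 3 livers. In every panel the 6 induced livers lie on one side of the 3 controls: Cdkn1a, Cdk1, Lcn2 and Tnc higher, Ugt2b38, Aox3, Tbx3 and Nr1d1 lower.

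Library depth ran from 11013412 to 20079232 counts per liver, and TMM scaling factors were 0.874 to 0.910 for controls, 0.953 to 1.01 for Mycl and 1.07 to 1.26 for c-Myc libraries. The hepatocyte marker Alb stood at 44993 to 102990 CPM, and the tissue label was met in all 9 libraries. Mycl replicate 1 stood apart: genes with transcripts under 800 nt (223 genes, ribosomal proteins left out) had a median log2 deviation from the controls of 1.37 there and of at most 0.21 in any other library, while Apob, whose transcript is very long, stood at 3150 CPM there and at 9723 to 22724 CPM elsewhere. Without that library, 1461 genes met both conditions as higher and 872 as lower. The 9 pairs of replicates of a group differed by 10.5 to 207 times the sampling noise (chi-square per degree of freedom), so none was a repeated library. In bulk tissue, fewer cells of a type and less RNA per cell cannot be told apart.

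Of the 12651 genes tested, 1658 (13.1%) passed the test, 946 higher (7.48%) and 712 lower (5.63%) in the induced livers. All 6 induced livers lay above all 3 controls for 1158 genes (9.15%) and below them for 1335 (10.6%). The 794 higher genes that met both conditions were 6.28% of those tested, and the 578 lower genes 4.57%. A further 364 genes were above and 757 below in all 6 livers without passing the test, while 152 higher and 134 lower calls had livers that overlapped the controls. At the edge of the separation, Nlrp6 and Cry2 were just inside, with gaps of 0.00187 and 0.00407 in log2(CPM + 0.25), and Trmt1 and Abhd18 just outside, at -0.00265 and -0.00192, where a negative gap is an overlap. The share of higher genes among all calls was 57.1% with TMM, 65.8% with RLE factors, 71.7% with upper-quartile factors and 88.1% with library totals, which moved the median log2 fold change of all genes from -0.02 to 0.23. The lower count thus depends on the scaling, and falls are given relative to the median gene.

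Leaving out any single control reduced the calls: to 457 higher and 136 lower without replicate 1, 473 and 137 without replicate 2, and 429 and 111 without replicate 3. The calls numbered 1633 higher and 1030 lower without Mycl replicate 1, 894 and 352 without Mycl replicate 3, 718 and 373 without c-Myc replicate 1, and 748 and 312 without c-Myc replicate 2. Of the 122 called genes that the naming rule selected, 75 passed in every fit that left out 1 library. The others are named with the libraries on which their call rested. Lists of related genes are given by how many members passed, to be read beside the 7.48% higher and 5.63% lower of all tested genes. Where 0 passed in a direction in edgeR, which was so for 17 lists higher and 18 lower, at most 2 and 5 members had an unadjusted p under 0.05, DESeq2 called at most 2 and 1, and limma-voom 0.

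The higher and lower genes differed in size and level. The median log2 fold change was 1.40 over the 794 higher genes and -0.66 over the 578 lower genes, beside -0.02 over all genes tested. Among the higher genes, 550 (69.3%) rose at least 2-fold and 256 at least 4-fold, against 117 (20.2%) and 19 of the lower genes. Conversely, 241 of the higher genes but 452 of the lower genes had a mean level above that of the median tested gene, 17.7 CPM. Most selected rises were thus of genes below the median level, and most selected falls of genes above it. The selection shapes this contrast. The filter keeps a gene with enough counts in a single group, and a small change passes more readily at high counts. The contrast is therefore not read as a property of the response.

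Within the shared changes, the lines were compared by their own contrast, which takes only the estimate of spread from the controls and called 857 genes (6.77%), 524 higher and 333 lower in c-Myc. These counts rest on few livers: they were 40 and 27 without c-Myc replicate 1, 47 and 32 without c-Myc replicate 2, 979 and 572 without c-Myc replicate 3, 183 and 190 without Mycl replicate 3, 262 and 261 without Mycl replicate 2, and 194 to 207 and 127 to 134 without any 1 control. Of the 794 higher genes, 194 were higher in c-Myc than in Mycl livers, 2 were lower, and 598 (75.3%) did not pass. The c-Myc minus Mycl difference was above 0 for 667 of them, with a median of 0.64. The median log2 fold change was 1.16 in Mycl and 1.65 in c-Myc livers, beside 0.01 and -0.05 over all tested genes. Of the 578 lower genes, 3 were higher in c-Myc, 21 were lower and 554 (95.8%) did not pass, with a median difference of -0.16. A gene that did not pass may still differ between the lines: the absolute difference was under 0.5 for 310 of the higher and 472 of the lower genes. The shared genes were selected by values of the same Mycl and c-Myc livers. The share of all tested genes with a difference above 0 is not given here. The split of the shared genes by direction is therefore not read as a property of the response.

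**Figure D2:**
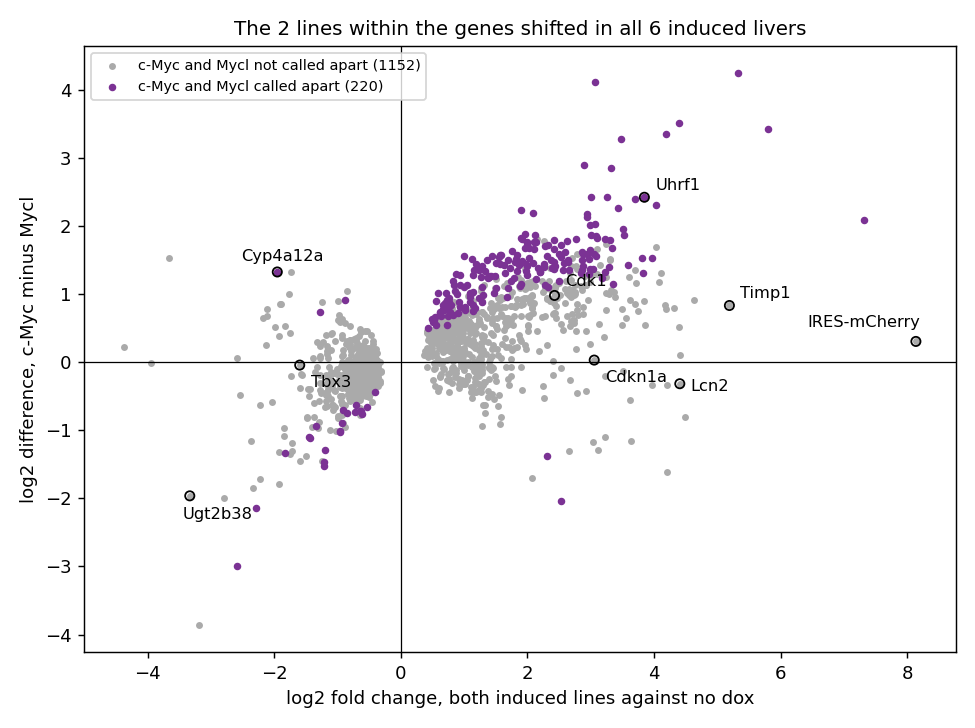
Each point is 1 of the 1372 shared genes: the horizontal axis is its log2 fold change in both induced lines against no dox, the vertical axis its log2 difference between c-Myc and Mycl livers. Purple points (220) were called apart between the lines and grey points (1152) were not; most purple points lie to the upper right, where c-Myc exceeds Mycl among higher genes.

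The promoters of the shared genes were searched on both strands for 5 motifs in the same 250-base window, which RefSeq gave for 597 of the higher and 456 of the lower genes (722 and 610 windows). The E2F core (TTTCCCGC or TTTGGCGC) was in 5.13% of windows of higher genes and 0.328% of lower genes, beside 2.32% of tested genes and 1.3% of all promoters. The CHR element (TTTGAA or TTTAAA) was in 22.3%, 19.02%, 18.1% and 25.2% in the same order, and the CCAAT box in 41.3%, 35.6%, 35.2% and 33.9%. The E-box CACGTG was in 6.93% of windows of higher and 8.85% of lower genes, beside 8.11% of tested genes and 6.02% of all promoters. The p53 core was in 0.277%, 0.656%, 0.297% and 0.490%. These shares were not tested, and a match is a string of letters and not a bound site.

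The reporter and the MYC genes were read first as a check of the labels. The IRES-mCherry reporter stood at 1.09, 0.316 and 0.318 CPM in the controls, 52.3, 146 and 269.8 CPM in Mycl livers and 221, 282 and 76.4 CPM in c-Myc livers, the largest shared rise, a pooled log2 change of 8.14 (SE 0.84, adjusted p = 0.00134 in edgeR). Mycl stood at 10.8, 11.6 and 11.5 CPM in the controls, 49.1, 130.3 and 234 CPM in Mycl livers and 5.70, 7.05 and 6.59 CPM in c-Myc livers, and Myc at 4.05, 7.02 and 12.7 CPM in the controls, 4.61, 5.37 and 14.2 CPM in Mycl livers and 214, 269.8 and 81.8 CPM in c-Myc livers. Each MYC gene was high only in the 3 livers of its own line, so neither belongs to the shared genes although both passed the pooled test, and every library matched its label. Reads of the transgenes and of the mouse's own copies were counted together. Of the 14 genes of the MYC network and transgenes list, 4 passed higher and 0 lower (median 0.13), the fourth being Mxd3, a MAX partner that opposes MYC, which stood at 0.0796 to 0.328 CPM in the no dox livers and 0.609 to 1.72 CPM in the induced livers and rests on few reads. Its call was lost without no dox replicate 2 or 3 (edgeR adjusted p 0.0652 to 0.0674), that of Myc without no dox replicate 1 or 2 (0.0817 to 0.0908) and that of Mycl without any 1 of the controls or of the c-Myc livers (0.0603 to 0.136). Max itself had a pooled log2 change of 0.44 (SE 0.18, adjusted p = 0.139 in edgeR).

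Genes of mitosis had the largest share of rises among the lists. Of 30 tested, 29 passed higher and 0 lower, 28 of them with all 6 livers above the controls, and the median log2 fold change was 2.37 in the pooled contrast, 1.90 in Mycl livers and 2.79 in c-Myc livers. The 29 rises ran from 1.46 to 3.38. Birc5, survivin, which keeps chromosomes attached during division, stood at 0.493, 1.08 and 0.955 CPM in the controls, 9.58, 4.23 and 6.64 CPM in Mycl livers and 6.85, 12.1 and 7.25 CPM in c-Myc livers, with no overlap and with both lines intermixed. It had a pooled log2 change of 3.21 (SE 0.39, adjusted p = 0.00168 in edgeR). Anln, an actin-binding protein of the cleavage furrow, rose by 2.36 (SE 0.29), and Mad2l1, a spindle checkpoint protein, by 2.01 (SE 0.24). Outside the naming rule, the one gene that did not pass was Cenpa, the centromeric histone, at 0.75 (SE 0.32, edgeR adjusted p = 0.153). Between the lines, 5 of the 30 passed as higher in c-Myc livers in edgeR (21 at an unadjusted p under 0.05). The list kept its count within 1.5 times in every setting.

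Genes of DNA replication rose almost as widely, and more of them were called between the lines, a contrast of lists that was not tested. Of 34 tested, 32 passed higher and 0 lower, 26 of them without overlap, with a median of 1.76 in the pooled contrast, 1.09 in Mycl livers and 2.36 in c-Myc livers. The test between the lines called 22 of the 34 higher in c-Myc livers (30 at an unadjusted p under 0.05). Mcm5, a subunit of the replicative helicase, stood at 4.38, 7.97 and 4.69 CPM in the controls, 16.4, 30.3 and 25.6 CPM in Mycl livers and 67.5, 98.3 and 53.02 CPM in c-Myc livers, so that the c-Myc livers lay above the Mycl livers, and these above the controls. Its pooled log2 change of 2.88 (SE 0.31, adjusted p = 0.00138 in edgeR) went with a c-Myc minus Mycl difference of 1.59 (SE 0.30, edgeR adjusted p = 0.0217). The same order held without overlap for Rrm2, the regulated subunit of ribonucleotide reductase (5.80, 5.19 and 5.41 CPM in the controls, 18.7, 20.1 and 13.8 CPM in Mycl livers and 44.3, 88.9 and 39.9 CPM in c-Myc livers), for Lig1, which joins Okazaki fragments (3.23, 4.05 and 2.94 CPM in the controls, 8.49, 13.6 and 16.02 CPM in Mycl livers and 34.9, 44.5 and 27.4 CPM in c-Myc livers), and for Prim1, a primase subunit (3.67, 4.55 and 4.93 CPM in the controls, 14.7, 10.1 and 9.75 CPM in Mycl livers and 18.3, 25.4 and 16.7 CPM in c-Myc livers). They rose by 2.54 (SE 0.29), 2.64 (SE 0.25) and 1.80 (SE 0.21). Gins4 at 0.54 (SE 0.27, edgeR adjusted p = 0.208) and Rfc3 at 0.63 (SE 0.22, edgeR adjusted p = 0.0846), named after their values were seen, did not pass. In a fit with 2 groups, 21 of the list passed.

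Uhrf1, of the replication list, and Hells, Hist1h1a and Hist1h1b, of no list, were among the 12 largest rises of shared genes above the median level. Uhrf1, which carries DNA methylation through replication, stood at 1.31, 2.72 and 1.43 CPM in the controls, 6.69, 15.8 and 11.3 CPM in Mycl livers and 57.7, 93.7 and 31.9 CPM in c-Myc livers, and Hells, a chromatin remodeller that assists it, at 2.19, 3.29 and 2.39 CPM in the controls, 8.94, 15.3 and 10.8 CPM in Mycl livers and 42.2, 62.7 and 22.6 CPM in c-Myc livers. For both, all c-Myc livers lay above all Mycl livers, and these above every control. The log2 fold changes were 3.85 (SE 0.46) and 3.09 (SE 0.36), with c-Myc minus Mycl at 2.43 (adjusted p = 0.017) and 1.86 (adjusted p = 0.0198). The linker histone genes Hist1h1a and Hist1h1b rose by 3.37 (SE 0.46) and 2.86 (SE 0.31). Hist1h1a stood at 1.92, 4.30 and 1.75 CPM in the controls, 32.1, 10.9 and 15.4 CPM in Mycl livers and 28.5, 55.05 and 34.8 CPM in c-Myc livers, with Mycl replicate 1, the library rich in short transcripts, the highest of its line. Linker histone genes are related in sequence, so their counts are uncertain.

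Of 20 tested regulators of G1 and S phase, 8 passed higher and 0 lower, with a median of 0.61 in the pooled contrast, 0.27 in Mycl livers and 0.86 in c-Myc livers. Ccna2, the cyclin of S phase and G2, stood at 1.91 to 4.11 CPM in the no dox livers and 10.8 to 48.8 CPM in the induced livers and rose by 2.75 (SE 0.38). Ccne1, the cyclin of S phase entry, and E2f1, the transcription factor that drives it, rose by 1.97 (SE 0.31) and 1.84 (SE 0.26). Both were higher in c-Myc than in Mycl livers, by 1.88 (adjusted p = 0.016) and 1.34 (adjusted p = 0.0242) on the log2 scale. Rbl1, a pocket protein related to Rb, rose by 1.69 (SE 0.23). Without no dox replicate 3, 4 of the list passed, and without Mycl replicate 1, 12.

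Alongside the drivers of division, 7 of 24 p53 targets rose and 0 fell, with a list median of 0.44 in the pooled contrast, 0.35 in Mycl livers and 0.52 in c-Myc livers. The 7 were Cdkn1a, Eda2r, Phlda3, Gtse1, Tnfrsf10b, Bax and Aen, and all 6 induced livers were above the controls for each. Eda2r, a death domain-free receptor of the TNF family, stood at 1.15, 1.08 and 0.875 CPM in the controls, 4.61, 3.85 and 7.19 CPM in Mycl livers and 10.3, 33.01 and 11.6 CPM in c-Myc livers, with c-Myc replicate 2 far above the rest. It rose by 3.22 (SE 0.48), and by more in c-Myc than in Mycl livers, with a difference of 1.81 (SE 0.43, edgeR adjusted p = 0.0381). Phlda3, an inhibitor of AKT signalling, rose by 2.73 (SE 0.40) at 0.602 to 1.14 CPM in the no dox livers and 3.52 to 11.9 CPM in the induced livers. Gtse1, which belongs to the G2 and S phase machinery as well, rose by 2.99 (SE 0.50). The other 17 of the list did not pass, and DESeq2 called 11.

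The apparatus that makes ribosomes rose in part. Of 40 ribosome biogenesis genes, 22 passed higher and 0 lower, but only 11 of these had all 6 livers above the controls, and the median was 0.88 in the pooled contrast, 0.36 in Mycl livers and 1.38 in c-Myc livers. Higher in c-Myc than in Mycl livers by the test were 21 of the 40 (36 at an unadjusted p under 0.05). Npm1, nucleophosmin of the nucleolus, stood at 70.6, 68.9 and 68.98 CPM in the controls, 175, 106 and 179 CPM in Mycl livers and 324, 415 and 246 CPM in c-Myc livers, with the Mycl livers between the controls and the c-Myc livers. It had a pooled log2 change of 1.69 (SE 0.22, adjusted p = 0.0021 in edgeR) and a c-Myc minus Mycl difference of 1.10 (adjusted p = 0.0305). Nop56 and Nop58, core proteins of the particles that methylate ribosomal RNA, rose by 1.40 (SE 0.26) and 1.42 (SE 0.26), and Nhp2, of the particles that make pseudouridine, by 1.59 (SE 0.26). The number of list members passing was 6, 7 and 5 without no dox replicates 1, 2 and 3, 10 and 14 without c-Myc replicates 1 and 2, 13 with limma-voom and 4 in a fit with 2 groups.

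Cytosolic ribosomal protein genes rose without a difference called between the lines. Of 46 tested, 30 passed higher and 0 lower, 42 had all 6 livers above the controls, and the median was 1.07 in the pooled contrast, 1.24 in Mycl livers and 0.94 in c-Myc livers, with 0 of 46 called between the lines in edgeR (2 at an unadjusted p under 0.05). Rpl30 stood at 34.3, 33.8 and 31.7 CPM in the controls, 73.4, 46.96 and 66.5 CPM in Mycl livers and 75.2, 63.04 and 72.2 CPM in c-Myc livers, and Rps4x at 199, 191 and 193 CPM in the controls, 426, 278 and 363 CPM in Mycl livers and 378, 445 and 395 CPM in c-Myc livers. Mycl replicate 2 was the lowest induced liver for both, and all 6 were above the controls. They rose by 0.99 (SE 0.15) and 0.97 (SE 0.16), with Rpl23 at 0.94 and Rps28 at 0.92. These are short transcripts, and over the list the median deviation in Mycl replicate 1 was 1.91, against 0.44 to 1.02 in the other 5 induced livers. Without that library 44 passed, and without Mycl replicate 2, 45. Without no dox replicates 1, 2 and 3, 12, 8 and 7 passed. Many of these genes have near-identical processed copies, so their counts are uncertain.

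Nucleotide and polyamine synthesis gave 15 rises and 0 falls among 24 genes, with a median of 0.80 in the pooled contrast, 0.40 in Mycl livers and 1.12 in c-Myc livers, and 12 passed as higher in c-Myc than in Mycl livers (16 at an unadjusted p under 0.05). Impdh2, the committed enzyme of guanine nucleotide synthesis, stood at 22.4, 19.4 and 18.8 CPM in the controls, 34.2, 32.6 and 38.7 CPM in Mycl livers and 66.9, 87.1 and 55.8 CPM in c-Myc livers. The 3 groups were in separate ranges, with a pooled log2 change of 1.296 (SE 0.16, adjusted p = 0.00168 in edgeR). Srm, spermidine synthase, and Ctps, CTP synthase, rose by 1.90 (SE 0.28) and 1.84 (SE 0.31), and differed between the lines by 1.83 (adjusted p = 0.0153) and 1.57 (adjusted p = 0.0264). Dut, which removes dUTP, rose by 1.37 (SE 0.23). Fewer passed without no dox replicates 1, 2 and 3 (7, 5 and 5).

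**Figure D3:**
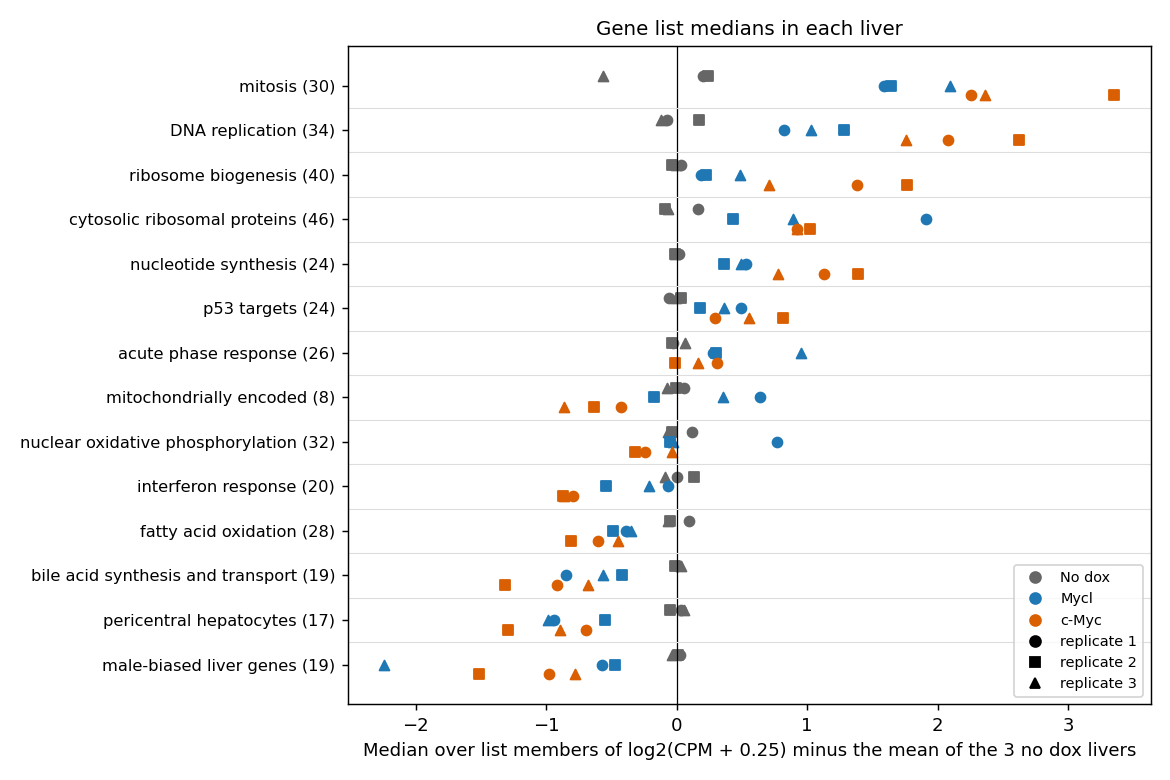
For 14 gene lists (number of genes tested in brackets), the median over members of log2(CPM + 0.25) minus the mean of the 3 no dox livers, 1 point per liver; colours are groups, and circles, squares and triangles are replicates 1, 2 and 3. The mitosis and DNA replication medians lie above every control in all 6 induced livers, and the pericentral and bile acid medians below; Mycl replicate 1 is the highest point for cytosolic ribosomal proteins and nuclear oxidative phosphorylation.

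In the amino acid response, 7 of 24 genes rose and 1 fell (median 0.41 in the pooled contrast, 0.30 in Mycl livers and 0.49 in c-Myc livers). The risers that the naming rule took make amino acids. Psat1 of serine synthesis stood at 1.48, 1.26 and 1.35 CPM in the controls, 7.59, 4.61 and 9.75 CPM in Mycl livers and 21.1, 42.2 and 12.7 CPM in c-Myc livers, and Asns, asparagine synthetase, at 1.70, 1.39 and 1.59 CPM in the controls, 4.70, 4.66 and 9.75 CPM in Mycl livers and 6.90, 21.7 and 9.38 CPM in c-Myc livers. All induced livers were above the controls, and c-Myc replicate 2 was the highest for both. Psat1 rose by 3.31 (SE 0.44) and Asns by 2.52 (SE 0.44). Phgdh, which begins serine synthesis, stood at 0.0633 to 0.557 CPM in the no dox livers and 0.705 to 28.8 CPM in the induced livers and rose by 4.19 (SE 0.75), and by more in c-Myc than in Mycl livers, with a difference of 3.36 (adjusted p = 0.0174). The 1 that fell was Trib3, a pseudokinase induced by ATF4, at -0.82 (SE 0.18, edgeR adjusted p = 0.0173), named after its value was seen. With no dox replicate 1, 2 or 3 left out, 3, 3 and 4 of the list passed higher. Of 19 ER chaperones, 3 rose and 0 fell: Manf, a secreted stress protein, by 0.98 (SE 0.14), Creld2 by 1.44 and Sdf2l1 by 0.76. Creld2 did not pass without no dox replicate 1 or 2 (edgeR adjusted p 0.0565 to 0.0622) nor Sdf2l1 without any 1 control or c-Myc replicate 1 or 2 (0.0565 to 0.145), and without Mycl replicate 1, 10 of the list passed.

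The acute phase response, in which the inflamed liver secretes defence proteins, gave several of the largest shared rises. Of 26 genes, 8 rose and 1 fell, and the list median was 0.34 in the pooled contrast, 0.58 in Mycl livers and 0.11 in c-Myc livers. Lcn2 (ENSMUSG00000026822, chromosome 2, 32384633 to 32388252), which binds bacterial iron carriers, stood at 4.16, 7.34 and 8.83 CPM in the controls, 66.6, 111 and 300.2 CPM in Mycl livers and 251, 58.3 and 75.2 CPM in c-Myc livers. The induced livers spread widely, with Mycl replicate 3 and c-Myc replicate 1 the highest, and all were above the controls. Its pooled log2 change of 4.41 (SE 0.70, adjusted p = 0.00387 in edgeR) held in every fit that left out 1 library, and c-Myc minus Mycl was -0.31 (adjusted p = 0.775). Orm2, an orosomucoid, stood at 7.33, 7.46 and 9.71 CPM in the controls, 52.5, 57.9 and 132 CPM in Mycl livers and 53.6, 23.7 and 20.8 CPM in c-Myc livers and rose by 2.66 (SE 0.42). Il1rn, the interleukin-1 receptor antagonist, rose by 1.53 (SE 0.27), with values of 1.64 to 2.71 CPM in the no dox livers and 4.66 to 9.44 CPM in the induced livers.

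Levels of the serum amyloid genes, which have near-identical copies, spread widely among the induced livers. Saa2 stood at 14.8, 15.2 and 39.8 CPM in the controls, 141, 85.4 and 557 CPM in Mycl livers and 1359, 194 and 225 CPM in c-Myc livers, and Saa1 at 79.1, 105 and 182 CPM in the controls, 552, 266 and 1052 CPM in Mycl livers and 2329, 368 and 688 CPM in c-Myc livers. For both, c-Myc replicate 1 was the highest by a wide margin, and c-Myc replicates 2 and 3 lay within the range of the Mycl livers. Saa2 rose by 4.09 (SE 0.92) and Saa1 by 2.78 (SE 0.66), and neither passed without any 1 of the controls (edgeR adjusted p 0.0524 to 0.0954 and 0.0624 to 0.109). A2m, alpha-2-macroglobulin, stood at 2.52, 1.08 and 2.39 CPM in the controls, 9.22, 12.9 and 169.9 CPM in Mycl livers and 42.2, 14.2 and 6.39 CPM in c-Myc livers, with Mycl replicate 3 far above the rest. Its pooled log2 change of 4.20 (SE 1.14, adjusted p = 0.0387 in edgeR) was lost without any 1 control or without c-Myc replicate 1 or 2 (0.0656 to 0.154). Saa3 rose by 2.31 (SE 0.34) and, unlike most risers, was lower in c-Myc than in Mycl livers, by a difference of -1.37 (SE 0.34, edgeR adjusted p = 0.0408). The 1 acute phase gene that fell was Hamp, which encodes the iron hormone hepcidin, at -1.12 (SE 0.23, edgeR adjusted p = 0.0127), named after its value was seen, with livers that overlapped the controls. In fits without each control (replicates 1, 2 and 3), 5 of the list passed higher in each fit.

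Marker lists of other cells moved in part with these rises. The summed level of 16 genes of neutrophils and monocytes was 16.5 to 19.3 CPM in controls, 32.3 to 42.2 CPM in Mycl and 27.1 to 38.8 CPM in c-Myc livers. This sum includes the 3 genes that passed higher, Ccr2, Itgam and Ccl2, so it is not separate from their rises. Itgam stood at 2.09 to 2.39 CPM in the no dox livers and 5.72 to 10.5 CPM in the induced livers. Fpr1, also in the sum, overlapped, at 2.46 to 2.97 and 1.15 to 4.08 CPM. None of the 16 was at 0 throughout, but Ly6g had 2 reads over all 9 livers, Elane 27, Camp 28 and Mpo 42. Of 12 tested, 3 rose, 1 fell and 8 did not pass. All 6 induced livers lay above the controls for 4 of the 12 and below them for 1. Ly6c2, a list member, overlapped, with 0.398 to 0.766 CPM in the no dox livers and 0.399 to 1.46 CPM in the induced livers. Whether the number of these cells changed was not tested. Ccr2, the receptor of inflammatory monocytes, stood at 1.04, 1.26 and 2.07 CPM in the controls, 7.41, 7.48 and 7.62 CPM in Mycl livers and 7.44, 9.19 and 6.12 CPM in c-Myc livers, with the 6 induced livers close together and far above the controls, and had a pooled log2 change of 2.40 (SE 0.25, adjusted p = 0.00134 in edgeR). Its ligand Ccl2 rose by 3.49 (SE 0.32) at 0.159 to 0.253 CPM in the no dox livers and 1.63 to 3.55 CPM in the induced livers, and the integrin Itgam by 1.90 (SE 0.25). Bulk tissue does not show which cells Ccl2 came from. Il1b, the cytokine interleukin-1 beta, fell by 1.17 (SE 0.27), a call lost without any 1 control or c-Myc replicate 2 (edgeR adjusted p 0.0506 to 0.109). The part of these cells in the acute phase rises was not tested.

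Of 18 Kupffer cell and macrophage genes, 1 passed higher (5.56%, beside 7.48% of all tested genes) and 0 lower. Their summed level was 869 to 957 CPM in controls, 1032 to 1080 CPM in Mycl and 596 to 781 CPM in c-Myc livers, so the lines lay on opposite sides of the controls. The 1 gene was Marco, a scavenger receptor, whose livers overlapped (7.83, 8.98 and 9.71 CPM in the controls, 12.6, 29.2 and 26.5 CPM in Mycl livers and 16.3, 12.8 and 8.78 CPM in c-Myc livers) and whose call was lost without any 1 of 7 libraries, namely all controls, Mycl replicates 2 and 3 and c-Myc replicates 1 and 2 (edgeR adjusted p 0.0621 to 0.162). Between the lines, 9 of the 18 Kupffer cell and macrophage genes passed as lower in c-Myc than in Mycl livers and 0 as higher. At an unadjusted p under 0.05 in edgeR these numbers were 14 and 0. Over all tested genes, 6.77% were called between the lines in either direction. Of 18 endothelial, 5 lymphocyte and 8 cholangiocyte genes, 0, 0 and 0 passed higher and 0, 0 and 1 lower in the pooled contrast. The summed level for endothelium was 681 to 864 CPM in controls, 453 to 773 CPM in Mycl and 508 to 642 CPM in c-Myc livers, and for lymphocytes 8.65 to 13.2, 6.995 to 11.02 and 3.86 to 7.12 CPM, so for both lists all c-Myc livers lay below all controls and the Mycl livers overlapped them. For cholangiocytes it was 119 to 122, 85.1 to 145 and 98.3 to 127 CPM, with overlap in both lines.

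Of 17 genes listed for stellate cells and fibroblasts, the matrix-producing cells of the liver, 5 rose, 0 fell and 12 did not pass (median 0.50 in the pooled contrast, 0.38 in Mycl livers and 0.55 in c-Myc livers). Dcn, at 132 to 140 CPM in the no dox livers and 102 to 148 CPM in the induced livers, and Lrat, at 30.8 to 39.1 and 26.9 to 51.7 CPM, overlapped. Bulk tissue does not show which cells the rises came from. Their summed level was 983 to 1214 CPM in controls, 924 to 1833 CPM in Mycl and 1473 to 2818 CPM in c-Myc livers. Timp1, an inhibitor of matrix proteases, stood at 0.0547, 0.253 and 0.0796 CPM in the controls, 3.16, 3.52 and 4.45 CPM in Mycl livers and 9.83, 5.43 and 4.66 CPM in c-Myc livers, near 0 in the controls, so that its fold change rests on few control reads. It had a pooled log2 change of 5.19 (SE 0.48, adjusted p = 0.00126 in edgeR). Acta2, smooth muscle actin of activated stellate cells, stood at 2.79, 3.54 and 3.26 CPM in the controls, 11.5, 16.3 and 17.8 CPM in Mycl livers and 9.56, 40.9 and 16.96 CPM in c-Myc livers and rose by 2.53 (SE 0.44). Vim, the intermediate filament vimentin, rose by 1.66 (SE 0.22). Col1a1, the fibrillar collagen chain, rose by 2.28 (SE 0.47) but its lowest Mycl liver, 92.2 CPM, was close to the highest control, 84.8 CPM, and it did not pass without no dox replicate 1 or 2 (edgeR adjusted p 0.0625 to 0.0668). Tnc, tenascin C, a matrix protein of wounds that belongs to none of the lists, stood at 3.01, 5.38 and 4.06 CPM in the controls, 13.01, 46.1 and 26.3 CPM in Mycl livers and 43.1, 94.3 and 42.2 CPM in c-Myc livers, with Mycl replicate 1 the lowest and c-Myc replicate 2 the highest induced liver, and rose by 3.32 (SE 0.47). Without no dox replicate 1 or 2, 3 of the list passed.

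Of 8 erythroid genes, 1 rose and 2 fell, and they moved in different ways. Tfrc, the transferrin receptor that dividing cells also use, stood at 10.2, 10.9 and 15.7 CPM in the controls, 30.8, 45.2 and 43.1 CPM in Mycl livers and 40.1, 52.4 and 20.7 CPM in c-Myc livers, a pooled log2 change of 1.67 (SE 0.29, adjusted p = 0.00598 in edgeR). Slc4a1, the anion exchanger of red cells, fell by 2.79 (SE 0.43), with 1.59 to 5.38 CPM in the no dox livers and 0.104 to 0.914 CPM in the induced livers. Alas2, which begins haem synthesis in red cells, fell by 1.10 with overlap, a call that was lost without any 1 of 7 libraries (all controls, Mycl replicates 2 and 3, c-Myc replicates 1 and 2; edgeR adjusted p 0.0543 to 0.195). The summed level of 13 erythroid markers was 245 to 316 CPM in controls, 197 to 575 CPM in Mycl and 105 to 128 CPM in c-Myc livers. Mycl replicate 1, the library rich in short transcripts, had the highest sum. The globin Hbb-bs stood there at 283.5 CPM, at 62.6 and 65.5 CPM in Mycl replicates 2 and 3, at 59.7 to 75.2 CPM in controls and at 10.6 to 24.8 CPM in c-Myc livers. The test between the lines called 4 of the 8 lower in c-Myc than in Mycl livers (6 at an unadjusted p under 0.05 in edgeR).

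Among interferon-stimulated genes, which act against viruses, the calls were all falls. Of 20 tested, 0 rose and 8 fell, 6 of them with all 6 livers below the controls, and the median was -0.61 in the pooled contrast, -0.31 in Mycl livers and -0.83 in c-Myc livers. Rsad2, viperin, which blocks viral replication, stood at 19.05, 19.8 and 18.4 CPM in the controls, 11.6, 11.3 and 13.8 CPM in Mycl livers and 10.9, 10.2 and 10.5 CPM in c-Myc livers, in narrow and separate ranges, a pooled log2 change of -0.75 (SE 0.11, adjusted p = 0.00309 in edgeR). Cxcl9, a chemokine for T cells, fell by 0.92 (SE 0.15), with 8.19 to 10.9 CPM in the no dox livers and 4.02 to 5.73 CPM in the induced livers. Ifih1, the RNA sensor MDA5, fell by 0.70 (SE 0.13) and Oasl1, a regulator of interferon production, by 1.11 (SE 0.22). The call of Ifih1 was lost without no dox replicate 2 or 3 (edgeR adjusted p 0.0554 to 0.0756) and that of Oasl1 without replicate 2 (0.0940). Leaving out no dox replicates 1, 2 and 3 in turn, 4, 2 and 3 of the list passed lower, without c-Myc replicate 2, 5, and without Mycl replicate 1, 12.

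**Figure D4:**
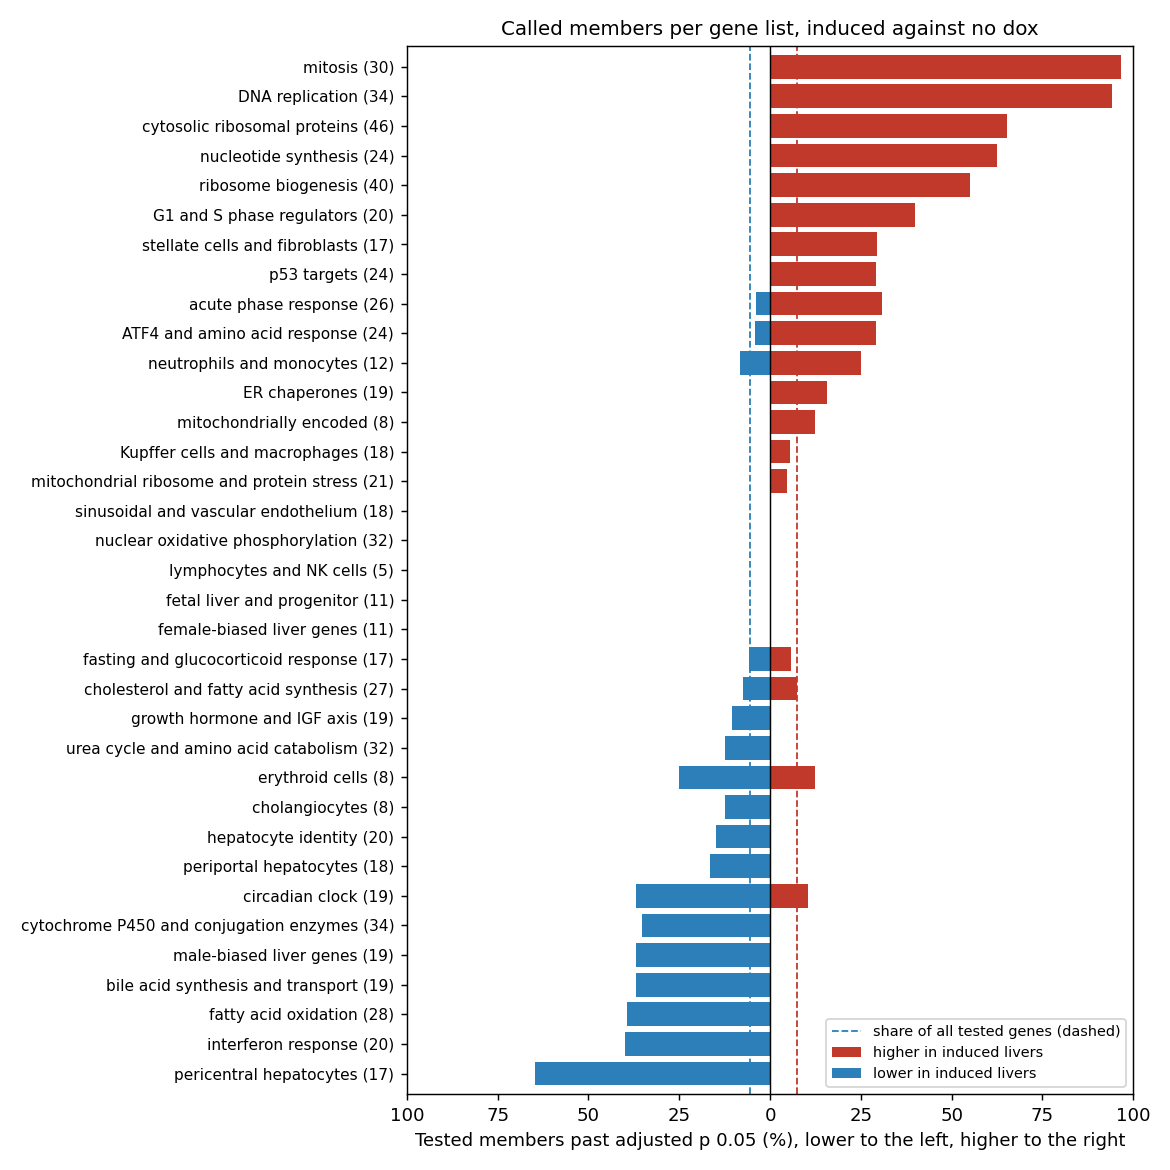
Share of the tested members of each gene list (number tested in brackets) that passed the pooled test at an adjusted p under 0.05, higher in induced livers to the right (red) and lower to the left (blue). Dashed lines mark the shares of all tested genes, 7.48% higher and 5.63% lower; mitosis (29 of 30) and DNA replication (32 of 34) reach furthest right, and pericentral hepatocyte genes (11 of 17) furthest left.

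The largest falls among shared genes above the median level included the following enzymes. Ugt2b38 (ENSMUSG00000061906, chromosome 5, 87409942 to 87424203), a glucuronosyltransferase with near-identical relatives, stood at 55.4, 47.4 and 58.2 CPM in the controls, 11.8, 16.8 and 2.92 CPM in Mycl livers and 2.66, 1.41 and 4.12 CPM in c-Myc livers. The controls lay close together, and all induced livers were far below them. It had a pooled log2 change of -3.33 (SE 0.41, adjusted p = 0.00186 in edgeR). Ces2c, a carboxylesterase, stood at 79.8, 87.4 and 88.9 CPM in the controls, 22.8, 24.4 and 5.18 CPM in Mycl livers and 11.03, 9.51 and 17.03 CPM in c-Myc livers and fell by 2.53 (SE 0.36). Aox3 and, with a smaller fold change, Aox1, aldehyde oxidases, fell by 1.85 (SE 0.25) and 0.93 (SE 0.10), Aox3 with 2256 to 2577 CPM in the no dox livers and 289 to 1216 CPM in the induced livers. Selenbp2, a selenium-binding protein, fell by 1.83 (SE 0.26) and by more in c-Myc livers, with a difference of -1.34 (adjusted p = 0.0362).

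Other named falls were of varied function. Arrdc3, an arrestin-like adaptor of receptor trafficking, stood at 354, 283 and 174 CPM in the controls, 56.6, 30.6 and 73.9 CPM in Mycl livers and 157, 58.1 and 76.6 CPM in c-Myc livers, with c-Myc replicate 1 close to the lowest control, and fell by 1.91 (SE 0.35). Tsc22d1, a leucine zipper protein, fell by 1.72 (SE 0.32), with 129 to 134 CPM in the no dox livers and 19.6 to 95.2 CPM in the induced livers. Adgrf1, an adhesion G protein-coupled receptor, fell by 1.71 (SE 0.28), with 32.1 to 35.96 CPM in the no dox livers and 2.98 to 20.3 CPM in the induced livers. Ugt1a9, whose last exons are shared with other Ugt1a genes, fell by 1.73 (SE 0.29), with no dox replicate 2 at 65.8 CPM and the other controls at 174 and 169.9 CPM.

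Genes of pericentral hepatocytes, the cells around the central vein that respond to Wnt, fell most widely of all the lists. Of 17 tested, 11 fell and 0 rose, each of the 11 with all 6 livers below the controls, and the median was -0.92 in the pooled contrast, -0.94 in Mycl livers and -0.90 in c-Myc livers, nearly the same in both lines. Tbx3, a Wnt-responsive transcription factor, stood at 92.5, 64.1 and 81.9 CPM in the controls, 25.4, 34.4 and 20.2 CPM in Mycl livers and 32.6, 22.04 and 23.1 CPM in c-Myc livers. The lines overlapped, and the difference was a pooled log2 change of -1.60 (SE 0.19, adjusted p = 0.00163 in edgeR), with c-Myc minus Mycl at -0.04 (adjusted p = 0.924). Axin2, a feedback inhibitor of Wnt signalling, stood at 15.7, 11.8 and 14.7 CPM in the controls, 6.87, 5.64 and 4.45 CPM in Mycl livers and 7.71, 4.91 and 5.26 CPM in c-Myc livers, a pooled log2 change of -1.28 (SE 0.19, adjusted p = 0.00304 in edgeR). Notum, a secreted Wnt deacylase, fell by 0.92 (SE 0.14), with 32.95 to 38.2 CPM in the no dox livers and 13.8 to 21.7 CPM in the induced livers. Gulo, the last enzyme of vitamin C synthesis in mice, fell by 1.18 (SE 0.20). Without no dox replicates 1, 2 and 3, 6, 6 and 4 of the 17 passed.

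Periportal genes, the counterpart at the other end of the lobule, gave 3 falls and 0 rises of 18 (median -0.38 in the pooled contrast, -0.06 in Mycl livers and -0.69 in c-Myc livers). These were Cyp2f2, a P450 of periportal cells, Igf1 and Fbp1, an enzyme of gluconeogenesis, at -1.10 (SE 0.26), -0.77 (SE 0.18) and -0.65 (SE 0.18). None of the 3 passed without any 1 of the controls or without Mycl replicate 3 (edgeR adjusted p 0.0507 to 0.137 over the fits in which Cyp2f2 was lost, 0.0518 to 0.146 for Igf1 and 0.0672 to 0.214 for Fbp1). Without c-Myc replicates 1 or 2, Cyp2f2 and Fbp1 were lost too, and without Mycl replicate 2 Fbp1. Without c-Myc replicate 3, 5 of the list passed. The difference between the pericentral and periportal lists was not tested.

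Of 34 cytochrome P450 and conjugation enzymes, 12 fell and 0 rose (median -0.56 in the pooled contrast, -0.47 in Mycl livers and -0.60 in c-Myc livers). Cyp1a2, which metabolises caffeine and is pericentral, stood at 883, 948 and 982 CPM in the controls, 316, 536 and 166 CPM in Mycl livers and 294, 214 and 391 CPM in c-Myc livers and fell by 1.56 (SE 0.31), a call lost without no dox replicate 2 or 3 (edgeR adjusted p 0.051 to 0.0568). Ugt2b1, a glucuronosyltransferase, fell by 1.46 (SE 0.22), with 1268 to 1414 CPM in the no dox livers and 324 to 739.8 CPM in the induced livers. With no dox replicate 1, 2 or 3 left out, 4, 3 and 3 of the list passed, without Mycl replicate 3, 7, and without c-Myc replicates 1 and 2, 8 and 6.

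Of 19 genes that male livers express more than female livers, 7 fell and 0 rose, with a median of -0.99 in the pooled contrast, -0.67 in Mycl livers and -1.09 in c-Myc livers. Cyp4a12a stood at 227, 315 and 267 CPM in the controls, 44.3, 58.1 and 29.6 CPM in Mycl livers and 135, 72.96 and 123 CPM in c-Myc livers, lower in Mycl than in c-Myc livers without overlap. Its pooled log2 change of -1.95 (SE 0.23, adjusted p = 0.00164 in edgeR) went with a c-Myc minus Mycl difference of 1.33 (adjusted p = 0.0307). Its near-identical neighbour Cyp4a12b fell by 1.90 (SE 0.35), and Cyp2u1 by 1.28 (SE 0.28), a call lost without any 1 control (edgeR adjusted p 0.055 to 0.0847). Mycl replicate 3 had the lowest median of the list, at -2.24, and the other 5 induced livers lay between -1.52 and -0.48. Of 11 tested female-biased genes, 0 rose and 0 fell in edgeR (2 higher and 0 lower at an unadjusted p under 0.05, and 2 higher in DESeq2), with a median of 0.99 in the pooled contrast, 1.46 in Mycl livers and 0.31 in c-Myc livers. Here Mycl replicate 3 was the highest liver, at a median of 2.43 against -0.40 to 0.73 in the other 5 induced livers, and without it the pooled median was 0.33. The Y-linked gene Ddx3y was present in all 9 livers, at 99.7 to 118 CPM in the no dox livers and 58.6 to 87.1 CPM in the induced livers. It was itself a shared fall, with a pooled log2 change of -0.54 (SE 0.12, adjusted p = 0.016 in edgeR). Its call was lost without any 1 control (edgeR adjusted p 0.0599 to 0.132). In fits without each control (replicates 1, 2 and 3), 3 of the male-biased list passed in each fit.

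Growth hormone, whose pulses maintain the male pattern, acts through Ghr. Of 19 genes of the growth hormone and IGF axis, 2 fell and 0 rose: Ghr, the receptor, which stood at 836, 869 and 841 CPM in the controls, 699, 631 and 426 CPM in Mycl livers and 314, 228 and 487 CPM in c-Myc livers, and Igf1, its secreted effector, which stood at 1281, 1494 and 1346 CPM in the controls, 829.7, 1091 and 929 CPM in Mycl livers and 749, 524 and 777 CPM in c-Myc livers. They fell by 0.92 (SE 0.24) and 0.77 (SE 0.18). The 2 falls were 10.5% of the list, beside 5.63% of all tested genes. All c-Myc livers were below all Mycl livers for Igf1, and the lines did not pass as different for either gene, at -0.48 (adjusted p = 0.178) for Igf1 and -0.77 (adjusted p = 0.118) for Ghr. The call of Ghr was lost without any 1 control, Mycl replicate 3 or c-Myc replicate 1 or 2 (edgeR adjusted p 0.0565 to 0.145), and that of Igf1 without any 1 control or Mycl replicate 3 (0.0518 to 0.146).

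Bile acid synthesis and transport gave 7 falls and 0 rises of 19 genes, with a median of -0.70 in the pooled contrast, -0.62 in Mycl livers and -0.88 in c-Myc livers. Slco1b2, an uptake carrier of bile acids and drugs, stood at 1524, 1312 and 1479 CPM in the controls, 855, 829 and 740.5 CPM in Mycl livers and 737, 482 and 865 CPM in c-Myc livers, and Abcb4, which exports phospholipid into bile, at 306, 305 and 316 CPM in the controls, 112, 195 and 163 CPM in Mycl livers and 216, 170.3 and 192 CPM in c-Myc livers. All induced livers were below the controls for both, and they fell by 0.94 (SE 0.19) and 0.83 (SE 0.17). Scp2 and Cyp27a1, of peroxisomal and mitochondrial side-chain steps, fell by 1.06 and 0.89. Cyp7b1, of the alternative pathway and also male-biased, stood at 382, 396 and 442 CPM in the controls, 97.8, 175 and 13.8 CPM in Mycl livers and 152, 94.2 and 167 CPM in c-Myc livers, with Mycl replicate 3 far below the rest, and fell by 1.83 (SE 0.52). No gene of the list passed without any 1 of the controls (the 5 genes named here had edgeR adjusted p of 0.0569 to 0.0829, 0.0696 to 0.0793, 0.0684 to 0.0833, 0.0861 to 0.101 and 0.0587 to 0.153 where lost), and Cyp7b1 did not pass without any 1 c-Myc liver either. Without c-Myc replicate 1 or 2, 4 passed, and without Mycl replicate 1, 11.

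Fatty acid oxidation gave 11 falls and 0 rises of 28 genes (median -0.54 in the pooled contrast, -0.38 in Mycl livers and -0.61 in c-Myc livers). Those named act mostly in peroxisomes. Ehhadh stood at 496, 481 and 461 CPM in the controls, 193, 272 and 235 CPM in Mycl livers and 164, 132 and 214 CPM in c-Myc livers, a pooled log2 change of -1.27 (SE 0.17, adjusted p = 0.00224 in edgeR), and Acaa1b at 588, 597 and 553 CPM in the controls, 324, 288 and 214 CPM in Mycl livers and 158, 189 and 278 CPM in c-Myc livers, a pooled log2 change of -1.27 (SE 0.19, adjusted p = 0.00321 in edgeR). For both, all induced livers were far below the controls, and the lines overlapped. Cpt2, of mitochondrial import, fell by 0.64 (SE 0.13), a call lost without any 1 control (edgeR adjusted p 0.0623 to 0.0879). Leaving out no dox replicates 1, 2 and 3 in turn, 2 of the list passed in each fit, and without Mycl replicate 1, 17.

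Ppara, the nuclear receptor known to drive these oxidation genes, was also a shared fall. It stood at 238, 250.2 and 252 CPM in the controls, 103, 146 and 114 CPM in Mycl livers and 127, 89.00 and 112 CPM in c-Myc livers, with no overlap and both lines intermixed, a pooled log2 change of -1.10 (SE 0.15, adjusted p = 0.00229 in edgeR). It is 1 of 3 genes of hepatocyte identity that fell, of 20 tested, with 0 higher (median -0.27 in the pooled contrast, -0.12 in Mycl livers and -0.44 in c-Myc livers). Cebpa, a transcription factor of differentiated hepatocytes, fell by 0.75 (SE 0.16), and Prox1, a homeobox factor, by 0.65 with overlap. Cebpa was lost without any 1 control (edgeR adjusted p 0.079 to 0.109), and Prox1 without any 1 control, Mycl replicate 3 or any 1 c-Myc liver (0.0606 to 0.219). Without each control in turn 1 of the 20 passed, and without Mycl replicate 1, 6. Of 11 fetal liver and progenitor genes tested, 0 rose and 0 fell (median 0.07).

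Of 27 genes of lipid synthesis, 2 rose and 2 fell, shares close to those of all tested genes (7.48% higher and 5.63% lower). Scd1, which desaturates fatty acids, stood at 8019, 11163 and 5843 CPM in the controls, 2744, 5338 and 2009.8 CPM in Mycl livers and 833, 1331 and 2612 CPM in c-Myc livers, with no dox replicate 3 and Mycl replicate 2 close, and fell by 1.85 (SE 0.40). Acss2, acetyl-CoA synthetase, fell by 0.70 with overlap, and by more in c-Myc livers, with a difference of -0.90 (adjusted p = 0.0423). Fdft1 and Mvd of cholesterol synthesis rose by 0.58 (SE 0.16) and 1.27 (SE 0.37). All 4 calls were lost in some fits with 1 library fewer: Scd1 without no dox replicate 1 or 2 (edgeR adjusted p 0.0649 to 0.103), Mvd without any 1 control or Mycl replicate 2 (0.0635 to 0.171), Fdft1 without any 1 control or c-Myc replicate 1 or 2 (0.0583 to 0.125), and Acss2 without any 1 control, Mycl replicate 3 or c-Myc replicate 1 or 2 (0.0618 to 0.249).

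The urea cycle and the breakdown of amino acids gave 4 falls and 0 rises of 32 genes (median -0.38 in the pooled contrast, -0.10 in Mycl livers and -0.73 in c-Myc livers). Oat, ornithine aminotransferase, stood at 459, 378 and 476 CPM in the controls, 215, 196 and 234 CPM in Mycl livers and 157, 103 and 256 CPM in c-Myc livers, with all induced livers below the controls, and fell by 1.19 (SE 0.23). Kynu, kynureninase, fell by 0.61 (SE 0.16). Bhmt, which remethylates homocysteine, is in the list but not a shared change. It stood at 965, 1238 and 1024 CPM in the controls, 754, 792 and 1177 CPM in Mycl livers and 135, 94.7 and 257 CPM in c-Myc livers, within the range of the controls in Mycl replicate 3, and differed between the lines by -2.48 (adjusted p = 0.0107). Oat was lost without no dox replicate 1 or 3 (edgeR adjusted p 0.0645 to 0.0715), Bhmt without replicate 2 (0.0610) and Kynu without any 1 of 7 libraries (0.0697 to 0.204), these being the controls, Mycl replicates 2 and 3 and c-Myc replicates 1 and 2. Without each control in turn 1 of the list passed. Without Mycl replicate 3 or c-Myc replicate 1, 2 passed, and without c-Myc replicate 3, 12.

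The circadian clock, whose genes cycle over the day, gave 2 rises and 7 falls of 19 genes (median -0.43 in the pooled contrast, -0.29 in Mycl livers and -0.42 in c-Myc livers). The shares were 10.5% higher and 36.8% lower, beside 7.48% and 5.63% of all tested genes. Nr1d1, the repressor REV-ERB alpha, stood at 121, 148 and 93.7 CPM in the controls, 36.05, 45.4 and 46.9 CPM in Mycl livers and 30.7, 26.2 and 57.5 CPM in c-Myc livers, with all induced livers below the controls and the Mycl livers within the c-Myc range, a pooled log2 change of -1.58 (SE 0.23, adjusted p = 0.00299 in edgeR). Dbp, a clock output factor, stood at 29.7, 49.7 and 23.9 CPM in the controls, 12.4, 7.48 and 7.92 CPM in Mycl livers and 3.37, 3.97 and 10.6 CPM in c-Myc livers and fell by 2.22 (SE 0.35), and Bhlhe41, a further repressor, fell by 2.11 (SE 0.30), with 3.18 to 5.44 CPM in the no dox livers and 0.548 to 1.93 CPM in the induced livers. The 2 that rose, named after their values were seen, were Arntl, the activator BMAL1 that Nr1d1 is known to repress, at 0.62 (SE 0.16, edgeR adjusted p = 0.0329), and Cry1 at 0.67 (SE 0.18, edgeR adjusted p = 0.0414). Cry2 fell by 0.64 at the edge of the separation, a call lost without any 1 control, Mycl replicate 3 or c-Myc replicate 1 (edgeR adjusted p 0.0532 to 0.152). The labels used here give no time of day at which livers were taken, so a difference in sampling hour and the treatment cannot be told apart. Without no dox replicates 1, 2 and 3, 4, 3 and 3 of the list passed lower, and without Mycl replicate 3 or c-Myc replicate 2, 4.

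Because doxycycline acts on mitochondrial ribosomes, mitochondrial genes were listed. Of the 13 protein genes that mitochondria encode, mt-Co3 and mt-Atp8 had 0 reads over all 9 livers, and mt-Co2, mt-Atp6 and mt-Nd4l had 1, 4 and 30, although every cell uses them, so their counts are not read as levels. Of the 8 tested, 1 rose and 0 fell, with medians of -0.15 in the pooled contrast, 0.32 in Mycl livers and -0.62 in c-Myc livers. By liver, the median log2 deviation from the controls was 0.64, -0.17 and 0.35 in Mycl and -0.42, -0.63 and -0.86 in c-Myc livers. Mycl replicate 2 thus lay below 0 with the c-Myc livers. mt-Co1, a subunit of cytochrome oxidase, stood at 10429, 10500.0 and 10695 CPM in the controls, 15733, 8489 and 8671 CPM in Mycl livers and 6439.7, 5946 and 5752 CPM in c-Myc livers. The Mycl livers straddled the controls, with Mycl replicate 1 the highest, and all c-Myc livers were lower. The difference between the lines passed for mt-Nd4, mt-Nd5 and mt-Nd6, subunits of complex I, at -0.85 (adjusted p = 0.0496), -0.998 (adjusted p = 0.041) and -1.72 (adjusted p = 0.0173) on the log2 scale for c-Myc minus Mycl in edgeR. The 1 that rose, mt-Nd3, had 244 reads in all against 20192 or more for each of the other 7 tested, so its counts are not read as its level either. They came to 0.930 to 1.14 CPM in the no dox livers and 1.52 to 2.80 CPM in the induced livers, and the call was lost without any 1 control or c-Myc replicate 2 (edgeR adjusted p 0.0524 to 0.125). Of 32 nuclear genes of oxidative phosphorylation, 0 passed in edgeR in either direction, against 1 lower in DESeq2. Of 21 genes of the mitochondrial ribosome and its protein stress response 1 rose (4.76%, beside 7.48% of all tested genes) and 0 fell. It was Htra2, a protease of the intermembrane space, which stood at 12.4, 11.2 and 9.31 CPM in the controls, 13.1, 11.4 and 14.4 CPM in Mycl livers and 21.8, 25.6 and 19.03 CPM in c-Myc livers. Htra2 overlapped in the Mycl livers and differed between the lines by 0.77 (edgeR adjusted p = 0.0309). Its pooled call was lost without no dox replicate 2 or 3 or c-Myc replicate 1 (0.0502 to 0.101).

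Of 17 genes of fasting and the glucocorticoid response, 1 rose and 1 fell (5.88% each). These shares are close to those of all tested genes (7.48% higher and 5.63% lower). Mt2, a metallothionein induced by stress hormones and metals, stood at 26.4, 22.2 and 25.2 CPM in the controls, 67.7, 75.6 and 416 CPM in Mycl livers and 66.3, 59.9 and 46.04 CPM in c-Myc livers, with Mycl replicate 3 far above the rest, and rose by 2.07 (SE 0.55). Angptl4, an inhibitor of lipoprotein lipase induced by fasting, fell by 0.71 (SE 0.17), with 62.1 to 81.00 CPM in the no dox livers and 26.9 to 56.4 CPM in the induced livers. Both calls were lost without any 1 control, and that of Mt2 also without c-Myc replicate 1 or 2 (edgeR adjusted p 0.068 to 0.14 for Mt2 and 0.0795 to 0.157 for Angptl4).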

How the data were processed

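The authors' deposited table holds whole-number read counts per gene, not normalised, for 9 liver libraries made with a directional kit, per the labels' protocols. Per the submitters' processing notes, the build is mm10 and the tools are STAR 2.7.8a, cutadapt 3.0, DESeq2 1.30.0 and HTSeq 0.11.2. Annotation release and strand setting were not given in the sources used here. Its 21703 entries are gene identifiers and the reporter, with 21702 Ensembl identifiers and 1 IRES-mCherry entry. A symbol was found for 21588 identifiers. Positions and transcript lengths come from GENCODE M21 (GRCm38).

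The test was edgeR 4.0.16 in R 4.3.3 (filterByExpr with a minimum count of 10, TMM, quasi-likelihood fit of 3 groups over 9 libraries, 6 residual degrees of freedom). The pooled contrast is the mean of the Mycl and c-Myc groups minus no dox. Benjamini-Hochberg adjustment ran over all 12651 genes, and an SE is the log2 fold change divided by the square root of F. Levels are counts per 1000000 (CPM) of the scaled library. Between 11013412 and 20079232 counts per liver limit the precision of low values to counting error, and 3 livers a group limit that of the contrasts. The procedure was tested on simulated data.

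The named genes are, per direction, the 12 with the largest fold change among shared genes above the median level and without clone-type names, up to 4 called members per list with the smallest adjusted p, Cdkn1a, Cdk1, the MYC genes, the reporter, the mitochondrially encoded genes and the genes next to the edge of the separation. The members, 37 gene lists and the rule were chosen with earlier results of these data known. Of 812 list entries, 8 matched no symbol. Lists are described by counts, without a set test, and some genes that the rule names are not reported here. Alternatives were RLE, upper-quartile and library-total scaling, no filter, a mean of at least 50 counts, DESeq2 1.42.0, limma-voom (limma 3.58.1), a replicate block, 2 groups, a 1.5-fold threshold (glmTreat) and leaving out each library.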

Additional observations from a re-analysis of the deposited data

Results flagged for a closer look

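Over the 131 named genes, the 6 induced livers were searched for a liver far from the other 5, and 22 genes had one. Chance gives such a gap in about 1 of 20 groups if the 6 values follow 1 normal distribution. Linear CPM of 2 lines need not do so, and the genes are not independent, so that rate is only a guide. In c-Myc replicate 2 the highest values belonged to genes of division (26.1 CPM of Anln, 48.8 CPM of Ccna2 and 35.04 CPM of Cdk1), of amino acid synthesis (21.7 CPM of Aldh18a1, 21.7 CPM of Asns and 28.8 CPM of Phgdh), of the p53 list (33.01 CPM of Eda2r and 11.9 CPM of Phlda3) and of matrix and stellate cells (40.9 CPM of Acta2, 793 CPM of Col1a1 and 141 CPM of Vim). The same liver had the lowest value of Slco1b2, at 482 CPM. Mycl replicate 3 stood apart in secreted and stress proteins, with 169.9 CPM of A2m, 416 CPM of Mt2 and 132 CPM of Orm2. Mycl replicate 1 was the highest for mt-Co1, at 15733 CPM, and for Sdf2l1, at 110.1 CPM, and Mycl replicate 2 the lowest for Rpl23, at 167 CPM. In c-Myc replicate 1, Saa2 reached 1359 CPM, Timp1 9.83 CPM and Arrdc3 157 CPM, and in c-Myc replicate 3, Bhlhe41 reached 1.93 CPM.

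For 33 named genes, the change in c-Myc livers differed from that in Mycl livers by the test of the difference itself (edgeR adjusted p under 0.05). Whether each is kept with 1 library left out was not examined. The counts of such calls over all genes fell to 40 higher and 27 lower without c-Myc replicate 1. The values that follow are log2 differences, c-Myc minus Mycl. Besides the transgenes, Myc at 4.53 and Mycl at -4.42, most of the differences were of growth and division genes with a larger rise in c-Myc livers. Among replication and chromatin genes these were Uhrf1 at 2.43, Hells at 1.86, Rrm2 at 1.72, Mcm5 at 1.59, Lig1 at 1.48 and Hist1h1b at 1.36. Cell cycle and p53 genes gave Ccne1 at 1.88, E2f1 at 1.34, Gtse1 at 2.01 and Eda2r at 1.81. Ribosome and nucleotide genes gave Nop56 at 1.27, Npm1 at 1.10, Srm at 1.83, Ctps at 1.57 and Impdh2 at 0.99, and serine synthesis gave Phgdh at 3.36 and Psat1 at 1.80. Htra2 stood at 0.77 and Trmt1, a transfer RNA methyltransferase, at 0.87. Cyp4a12a stood at 1.33, a larger fall in Mycl livers. Lower in c-Myc than in Mycl livers were Saa3 at -1.37, Bhmt at -2.48, Selenbp2 at -1.34, Acss2 at -0.90, Kynu at -0.76, Cry2 at -0.71, Abhd18 at -0.67, Ifih1 at -0.63, and the mitochondrial genes mt-Nd6 at -1.72, mt-Nd5 at -0.998 and mt-Nd4 at -0.85.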

How the results depend on the processing

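No named gene that had passed changed direction under any alternative run. Of those that had not passed, mt-Cytb, mt-Nd1, mt-Nd2, mt-Nd4 and mt-Nd5 changed sign, with pooled log2 changes between -0.28 and 0.17. Over the 122 called named genes and 19 alternatives each, the call was kept in 1988 of the fits and lost in 324, and of the named genes that had not passed, 1 (Max, without c-Myc replicate 3) passed. The counts that moved by over 1.5 times were as follows. Upper-quartile factors gave 446 lower calls, 367 of them without overlap. Library totals gave 1718 higher and 233 lower calls, 2075 genes above and 394 below all controls, 1405 and 190 meeting both conditions, and 1456 genes higher in c-Myc than in Mycl. A mean of at least 50 counts left 403 lower calls, 852 genes below all controls and 340 lower genes meeting both conditions. DESeq2 called 1443 genes higher, and 998 higher and 745 lower between the lines. A fit with 2 groups gave 502 and 299 calls and a 1.5-fold threshold 357 and 72. The replicate block gave 846 higher and 549 lower calls. Same-numbered livers of no dox and Mycl deviated together with r of 0.53, 0.31 and 0.20, and pairs with c-Myc livers gave -0.26 to 0.08. The main fit does not pair samples by number. Whether the numbers pair no dox with Mycl livers was not settled. Leaving out 1 library gave 429 to 1633 higher and 111 to 1030 lower calls, 1244 to 1964 genes above and 1160 to 1607 below all controls, 424 to 1461 and 101 to 872 meeting both conditions, and 40 to 979 higher and 27 to 572 lower between the lines. Depth limits the genes of few counts.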
